A study of Mus musculus with 2 samples.

Results

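The nuclei described here came from the postnatal day 1 mouse cerebellum. They were chosen by 6 transcription factor and adhesion genes taken as markers of progenitors of GABAergic neurons. Other cell classes also carried some of these genes. A nucleus was selected when it had at least 1000 detected genes and at most 5% mitochondrial transcripts, and when 3 or more unique molecular identifiers (UMIs, each a counted transcript) fell on Skor1, Lhx5, Pax3, Tfap2a, Frem1 and Kirrel2 together. It was also allowed at most 2 UMIs of the Purkinje cell genes Calb1, Skor2 and Car8 and 0 of the oligodendrocyte lineage genes Pdgfra and Sox10. The rule selected 1557 of the 10033 nuclei that passed the gene and mitochondrial limits, out of 11803 barcodes. Because UMIs of these genes chose the nuclei, their levels are given as a description, and so are all values of the subclusters made from the same nuclei.

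Single-nucleus RNA-seq compared littermate controls with a conditional knockout of Tox3, a gene for an HMG-box protein of the nucleus. The control library (Ctrl) came from littermates without Cre, labelled Tox3f/f (the library name also allows Tox3f/+), and the other library, labelled cKO, from Nestin-cre;Tox3f/f mice. Nestin-Cre acts in neural precursors and so reaches their neuronal and glial progeny alike. Each group was 1 library made from 12 pooled cerebella of both sexes, so no difference between the libraries has a replicate check and no test was possible. The control library gave 538 selected nuclei with 2999470 UMIs, and a median per nucleus of 4664 UMIs and 2429 genes. The library labelled cKO gave 1019 with 4787335 UMIs, and medians of 3958 and 2138. Paired values below stand in that order, control first. All intervals are exact 95% intervals and cover counting error only. The libraries shared 9 barcodes, of which 0 control and 1 cKO barcode were selected.

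GABAergic neurons of the cerebellum arise from the ventricular zone, where radial glia and neuroepithelial cells give rise to progenitors that express Ptf1a. Their progeny include Purkinje cells and, later, interneuron precursors that turn on Pax2, leave the ventricular zone, divide in the white matter and settle as basket, stellate and Golgi cells. The same progenitor domains also give rise to astroglia, and Notch signalling is known to hold such progenitors back from differentiation.

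The selected nuclei were a mixture, so the label of GABAergic progenitors holds for only some of them. In control, 46.3% of the selected nuclei (249 of 538) also had 3 or more UMIs of interneuron markers, namely Pax2, Slc6a5, Tll2, Kit, Htr7 and C1ql3. A similar share, 46.7% (251 nuclei), had as many UMIs of astroglia markers, namely Aqp4, Gdf10, Slc6a11, Hopx, Gjb6 and Tnc. In the library labelled cKO these shares were 41.1% (419 of 1019) and 50.3% (513 nuclei). Granule lineage markers reached 5 UMIs in 21.9% and 14.0% of the selected nuclei. Markers of 2 or more other classes were met together by 32.9% and 26.8%, and 13.6% and 16.5% met those of none. No selected nucleus reached 6 UMIs of the Purkinje cell genes, which the rule fixed.

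Microglia markers were met by 14.5% and 12.7% of the selected nuclei, but most of these UMIs were of P2ry12, a purinergic receptor gene. P2ry12 had 444 and 724 UMIs, followed by the chemokine receptor gene Cx3cr1 with 113 and 188. The complement genes C1qa (5 and 9 UMIs) and C1qb (6 and 20 UMIs) and the receptor gene Csf1r (12 and 31 UMIs), which define microglia, were near 0. P2ry12 (chr3:59216272-59262871, minus strand, GRCm38) lies inside Med12l (chr3:59005825-59318682, plus strand), on the opposite strand. Whether reads of Med12l entered the P2ry12 count was not tested. The microglia class outside the selection, used below as a background, had 317 control UMIs of P2ry12 beside 79 of C1qa and 163 of Csf1r, so it may hold other nuclei as well.

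Of the 6 genes, Pax3 decided the selection most often. Pax3 (chr1:78101267-78197134, minus strand), which encodes a paired-box factor of dorsal neural progenitors, was detected in 81.8% and 81.0% of selected nuclei. It was detected in 5.05% of control Purkinje cell nuclei, at a median of 9020 UMIs, and in 4.31% of control nuclei of the microglia class, at 4323 UMIs, classes that should lack it. Outside the selection it was also detected in 70.6% and 58.7% of nuclei of the astroglia class and in 14.8% and 18.3% of the granule class. Without Pax3, 59.3% and 59.5% of the selected nuclei would not have been chosen, and in 36.8% and 33.7% it was the only gene of the 6 that was detected. Tfap2a (chr13:40715302-40738376, minus strand), an AP-2 factor gene, was detected in 37.9% and 37.3% of selected nuclei and in 44.3% and 37.0% of the interneuron class outside them, and without it 17.8% and 18.4% would have been lost. Skor1 (chr9:63138170-63148961, minus strand), a co-repressor gene, and Lhx5 (chr5:120431699-120441223, plus strand), a LIM homeobox gene, were detected in 20.1% and 22.1% of selected control nuclei. Frem1 (chr4:82897920-83052339, minus strand), a gene for a basement membrane protein, and Kirrel2 (chr7:30447534-30457690, minus strand), a gene for an immunoglobulin-family adhesion protein, were each found in about as many, at 20.3% and 20.1%. All 6 genes together were detected in 6 and 8 nuclei.

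Tox3 was higher in nuclei with more UMIs of the 6 genes. Just outside the threshold, nuclei with a sum of 2 had 126 (230 nuclei) and 113 (455 nuclei) counts per 1000000 UMIs (CPM) of Tox3. Just inside it, nuclei with a sum of 3 had 131 CPM (139 nuclei) and 126 CPM (266 nuclei), so Tox3 was close on both sides of the threshold. Nuclei with a sum of 4 or 5 had 195 and 197 CPM, and those with 6 or more had 368 and 422 CPM. Angpt1, which encodes a ligand of the Tek receptor and was not used by the rule, went the same way, with 115 and 178 CPM at a sum of 2 and 823 and 929 CPM at 6 or more.

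Clustering of the selected nuclei, both libraries together, gave 11 subclusters. The genes of the rule, Tox3, sex-linked and mitochondrial genes were kept out of the clustering. A subcluster was named after a class only where 3 or more of the markers listed for it stood 2-fold or more above their median level elsewhere in the selection. Of these, 3 were GABAergic progenitor-like and held 359 nuclei, 111 from control and 248 from the other library. Another 2 were astroglia-like (subclusters 1 and 9, with 380 and 73 nuclei), 3 were GABAergic interneuron-like (subclusters 3, 7 and 11, with 177, 112 and 56 nuclei), and 1 was granule lineage-like (subcluster 10, with 68 nuclei). Subcluster 2, with 215 nuclei, stayed unnamed, since it was led by genes of the motile cilium (Wdr49, Lrriq1, Spef2 and Cfap54) and not by the astroglia markers that it met. Subcluster 5, with 117 nuclei and a median of 8257 UMIs, stayed unnamed because it met 3 markers each of astroglia, of the granule lineage and of glutamatergic neurons. The progenitor-like names rest mostly on genes of the rule itself, and of their markers only Angpt1 was free of it.

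**Figure D1:**
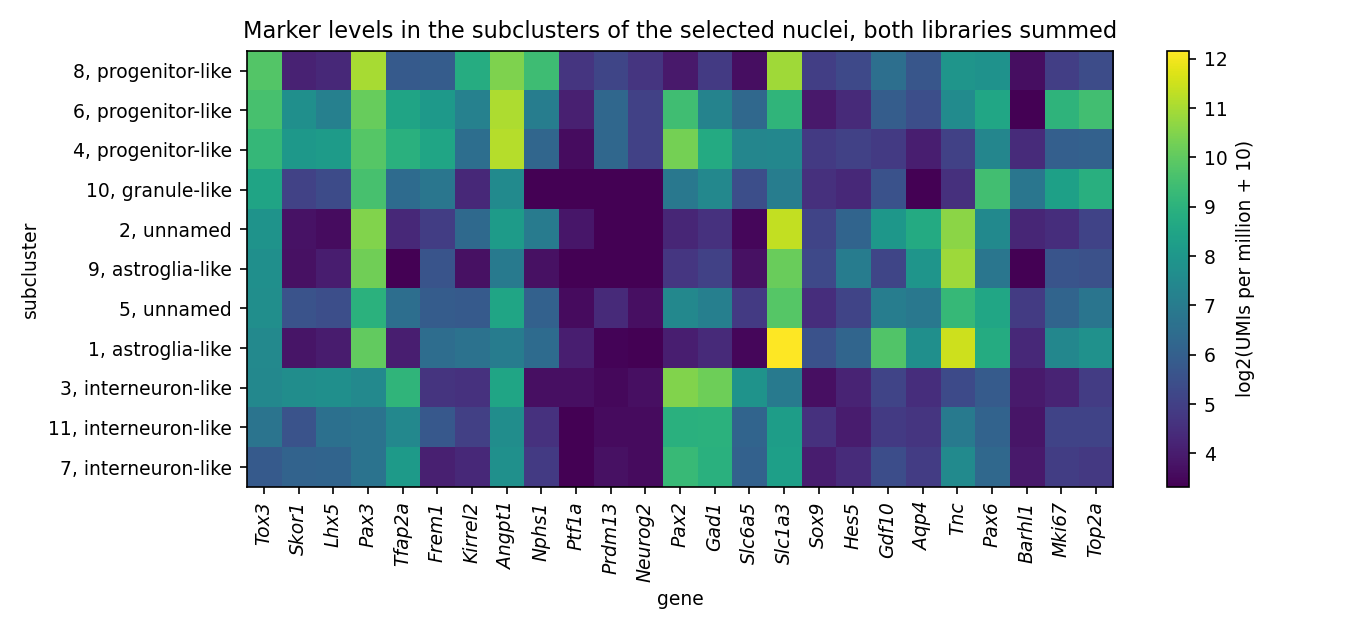
Levels of 25 genes (columns) in the 11 subclusters of the selected nuclei (rows), with both libraries summed, as log2 of CPM plus 10. The progenitor-like rows 8, 6 and 4 share high Tox3 and Angpt1, row 8 has the highest Kirrel2 and Nphs1, and rows 6 and 4 have Pax2, Skor1, Lhx5 and Tfap2a.

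The progenitor-like subclusters differed in which of the 6 genes they carried. Subcluster 8 (110 nuclei) was led by Ptx3, Col12a1, Nphs1, Kirrel2, Wnt7b and Smoc1. It had 2061 CPM of Pax3 over both libraries and 430 CPM of Kirrel2, but only 7.82 CPM of Skor1 and 10.4 CPM of Lhx5. Subcluster 6 (115 nuclei) was led by mitotic genes such as Kif18a, Aspm, Ttk and Tpx2, with 1083 CPM of Pax3, 200 CPM of Skor1 and 135 CPM of Lhx5. Subcluster 4 (134 nuclei) was led by Ccnd2, a D-type cyclin gene, with Dcc, Gfra1, Frem1 and Igfbpl1, and had 893 CPM of Pax3, 251 CPM of Skor1 and 280 CPM of Lhx5. So, of the 3, the one with the most Pax3 and Kirrel2 had the least Skor1 and Lhx5, and the rule joined both kinds.

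Genes of radial glia and of early progenitors were highest in subcluster 8 among these 3. Slc1a3, the glutamate transporter gene of radial glia and astroglia, had 1918 CPM in subcluster 8, 538 CPM in subcluster 6 and 161 CPM in subcluster 4. The receptor gene Notch1 followed the same order, at 318, 68.4 and 11.3 CPM, and so did the Notch ligand gene Dll1, at 91.2, 42.1 and 31.6 CPM. Ptch1, the Hedgehog receptor gene, had 662, 280 and 133 CPM. Ptf1a, the bHLH factor that sets GABAergic fate in the cerebellum, was sparse, at 15.6, 7.01 and 2.26 CPM.

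The order was the opposite for genes of interneuron precursors. Pax2, the marker of these precursors (chr19:44756045-44837871, plus strand), had 5.21 CPM in subcluster 8, 691 CPM in subcluster 6 and 1261 CPM in subcluster 4. Gad1, which encodes an enzyme that makes GABA, had 18.2, 144 and 418 CPM. The glycine transporter gene Slc6a5 had 2.61, 70.1 and 158 CPM. Tfap2b, an AP-2 factor gene of the GABAergic lineage, was present in each, at 443, 941 and 1049 CPM, and Prdm13, a gene for a transcriptional repressor that acts downstream of Ptf1a, was at 26.1, 66.6 and 67.8 CPM. In interneuron-like subcluster 3, Pax2 and Gad1 stood at 1425 and 1173 CPM, while Angpt1 was at 361 CPM against 1386 to 2287 CPM in the progenitor-like subclusters.

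Kirrel2 and Nphs1, which encode the related adhesion proteins neph3 and nephrin, lie head to head on chromosome 7. Nphs1 (chr7:30458315-30487223, plus strand) starts 624 bases from the start of Kirrel2. Against all other nuclei that passed, Nphs1 led the 4280 genes that were not used by the rule and had 50 CPM or more in control, at 88.7 CPM in the selected nuclei and 3.92 CPM in the others (22.6-fold). In the library labelled cKO it was 13.3-fold higher in the selected nuclei, behind Gm47520 at 14.3-fold. Both were highest in the same subclusters. Nphs1 reached 672 CPM in subcluster 8, where Kirrel2 had 430 CPM, and both were next highest in subcluster 6, at 123 CPM for Nphs1 and 137 CPM for Kirrel2. In granule lineage-like subcluster 10, Nphs1 had 0 UMIs and Kirrel2 10.2 CPM. The promoter sequence of Kirrel2, read on its own strand from RefSeq (GRCm38.p6, chr7:30457466-30457765, minus strand, 250 bases before to 50 after the transcription start), covers the start of Kirrel2 and the first bases of the stretch that separates the pair. It is shown because both genes were highest in the same progenitor-like nuclei. Capitals mark 1 match to CANNTG, the E-box that bHLH factors bind, and 3 matches to TGGGAA, a core read by RBPJ-type factors, searched on both strands and with no overlap.

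Kirrel2 promoter: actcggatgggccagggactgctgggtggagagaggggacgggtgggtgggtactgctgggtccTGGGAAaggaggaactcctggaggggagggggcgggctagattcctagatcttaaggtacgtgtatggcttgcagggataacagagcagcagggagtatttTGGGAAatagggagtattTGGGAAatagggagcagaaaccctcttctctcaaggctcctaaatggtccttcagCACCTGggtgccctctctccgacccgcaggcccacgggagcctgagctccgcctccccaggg

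Relative to the transcription start, the CANNTG match begins at base -12 and the TGGGAA matches at bases -186, -85 and -67. Of 32851 RefSeq promoters of the same length, 72.3% held CANNTG, 25.6% TGGGAA and 19.0% both, so the matches are a description of these letters and not evidence of binding. The 624 bases and the gene spans are from GENCODE, and the RefSeq start used for the motif positions lies inside the GENCODE span of Kirrel2. Only the match at -186 (chr7:30457696-30457701) lies outside that span, between the genes.

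Tox3 (chr8:90247040-90348343, minus strand) was highest in the progenitor-like subclusters in both libraries. High Tox3 was part of the label under which the nuclei were proposed, so all its levels are given as a description. In control, Tox3 stood at 262 CPM (244 to 281, 787 UMIs) over the selected nuclei and at 734 CPM (661 to 813, 365 UMIs) in the progenitor-like ones. Subcluster 8 came first, with 950 and 859 CPM, then subcluster 6, with 715 and 779 CPM, and subcluster 4, with 615 and 558 CPM. The counting intervals of subclusters 8 and 6 overlapped in both libraries, and those of 6 and 4 overlapped in control (604 to 840 and 505 to 743 CPM) but not in the library labelled cKO. Granule lineage-like subcluster 10 was next, at 299 and 494 CPM, and its interval overlapped that of subcluster 4 in the library labelled cKO.

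Outside the progenitor-like subclusters and subcluster 10, the selected nuclei had much less Tox3 than the progenitor-like ones. The astroglia-like subclusters 9 and 1 had 200 and 169 CPM of Tox3 over both libraries, and the unnamed subclusters 2 and 5 had 225 and 198 CPM. The interneuron-like subclusters 3, 11 and 7 had 164, 96.1 and 46.1 CPM, below every progenitor-like one. Among nuclei outside the selection, classed by the same markers, control Tox3 was 213 CPM in the oligodendrocyte class, 130 CPM in astroglia, 122 CPM in Purkinje cells, 101 CPM in the granule class, 56.5 CPM in interneurons and 33.7 CPM in microglia. Barcodes with fewer than 1000 genes, a look at free RNA, had 72.0 CPM in control (51 UMIs). By detection, 54.1% and 50.4% of selected nuclei had a Tox3 UMI. The shares outside were 49.1% and 54.1% in Purkinje cells, at medians of 9020 and 7929 UMIs, 29.4% and 32.3% in astroglia, 28.3% and 34.7% in the granule class, 20.6% and 17.9% in interneurons and 12.9% and 13.9% in the microglia class.

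**Figure D2:**
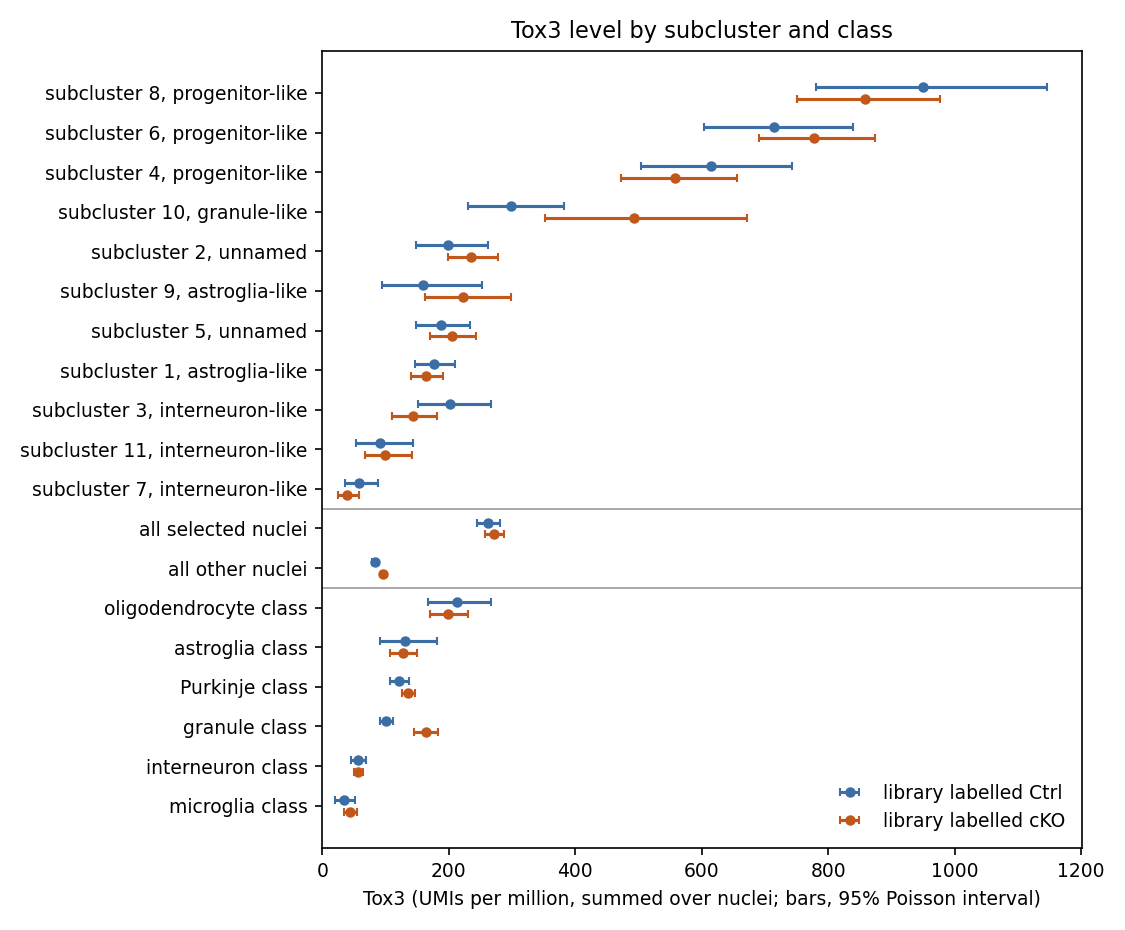
Tox3 in CPM, from UMIs summed over nuclei, for the 11 subclusters of the selected nuclei, for all selected and all other nuclei, and for 6 classes outside the selection, with blue for the library labelled Ctrl, orange for the library labelled cKO and bars for the 95% Poisson interval. The progenitor-like subclusters 8, 6 and 4 lie between 558 and 950 in both libraries, above the level of every other group shown. The bars of subclusters 4 and 10 overlap in the library labelled cKO.

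Genes whose control level over the 11 subclusters was most like that of Tox3 were Lncppara (Pearson r = 0.97), Map2k5 (0.95), Lrrn1 (0.95), Bcl7a (0.93) and Fgd4 (0.92). In the library labelled cKO, which the ranking did not use, these genes had r of 0.92, 0.95, 0.81, 0.74 and 0.58. The subclusters share a library and were clustered on many of the genes ranked here, so these values describe the pattern only. Over 7 groups, the selected nuclei and the 6 classes, the genes most like Tox3 in control were Gpc3, Hnrnpul1, Runx2, Gm26672 and Dcbld2. Only Gm26672 and Dcbld2 of these had an r above 0.8 in the library labelled cKO, at 0.81 and 0.84.

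Tox3 was not lower in the library labelled cKO in any population of the selection beyond counting error. Over the selected nuclei it had 272 CPM there (258 to 287, 1303 UMIs) against 262 CPM in control, a ratio of 1.04 (0.949 to 1.13). In the progenitor-like nuclei the levels were 737 and 734 CPM, a ratio of 1.00 (0.882 to 1.14). The ratio was 0.903 (0.716 to 1.15) in subcluster 8, 1.09 (0.889 to 1.34) in subcluster 6 and 0.907 (0.703 to 1.17) in subcluster 4. Only in granule lineage-like subcluster 10 did the interval lie off 1, at 1.65 (1.08 to 2.49) on 64 and 40 UMIs. Since the UMIs are summed over the whole gene, they say nothing on whether the deleted stretch was transcribed and do not check the genotype. Of the related genes, Tox had 151 and 140 CPM in the selected nuclei, Tox4 67.0 and 68.7 CPM, and Tox2 11 and 35 UMIs, a ratio of 1.99 (0.990 to 4.35).

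The share of selected nuclei depended on what it was set against. They made up 14.1% (13.0 to 15.2%) and 16.4% (15.5 to 17.3%) of passed nuclei, a ratio of 1.16 (1.05 to 1.29). The granule class made up 19.8% and 6.87% of passed nuclei, and outside it the selected nuclei made up 17.6% in both (ratio 1.00, 0.901 to 1.11). Within the selection, progenitor-like subclusters 4 and 6 together held 15.2% (82 of 538) and 16.4% (167 of 1019), a ratio of 1.08 (0.821 to 1.42). Subcluster 8 held 29 and 81 nuclei, subcluster 2 held 58 and 157, and subcluster 10 held 47 and 21, and the 3 progenitor-like subclusters together made up 2.91% and 3.99% of passed nuclei. These shares are not compared, because leading genes of the subclusters (Stk33 in 8, Lrriq1 in 2 and Col18a1, Barhl1 and Sema7a among others in 10) were themselves past 2-fold between the libraries.

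Dividing nuclei, with 3 or more UMIs summed over Mki67, Top2a, Cenpf, Kif11, Cenpe and Kif15, made up 20.3% (109 of 538) and 15.6% (159 of 1019) of the selected nuclei. The ratio was 0.770 (0.5998 to 0.992), at median depths of 4664 and 3958 UMIs. With each nucleus thinned to 1500 UMIs the shares were 10.1% and 7.95%, and the interval of the ratio (0.553 to 1.14) held 1. Among progenitor-like nuclei 35.1% (39 of 111) and 30.2% (75 of 248) were dividing, a ratio of 0.861 (0.577 to 1.30), so a difference there was not detectable at this depth. Most of them were in subcluster 6, at 91.9% and 87.2%, while subcluster 8 had 0 of 29 and 2 of 81 and subcluster 4 had 11.1% and 5.62%. Purkinje cells, which no longer divide, had 4.13% and 2.14% at 9020 and 7929 UMIs.

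Few genes differed 2-fold between the libraries within the selection. Of 14825 genes with 20 or more UMIs, 262 (1.77%) were 2-fold or more higher in the library labelled cKO and 224 (1.51%) 2-fold or more lower. When the ratio was taken within subclusters, 248 (1.67%) and 203 (1.37%) were. In all other passed nuclei 2.36% of 19903 genes were as much higher and 2.72% as much lower. Those nuclei held more UMIs, so the cut of 20 UMIs let in genes of lower CPM and the shares are not like for like. The 12 genes farthest from 1 in each direction, by the bound of the interval nearest 1, are named next.

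Among those higher in the library labelled cKO, Chst9, a gene for a sulfotransferase, had the most UMIs, at 39 and 249, or 13.0 and 52.0 CPM (ratio 4.0, 2.85 to 5.76). Subcluster 2, with 58 and 157 nuclei, held 10 and 83 of them, and interneuron-like subcluster 7, with 39 and 73 nuclei, held 3 and 80. Pifo (14 and 80 UMIs; ratio 3.58, 2.01 to 6.84) and Enkur (17 and 92 UMIs; 3.39, 2.01 to 6.07), both genes of the cilium, and Nek5 (2 and 25 UMIs), a gene for a NIMA-related kinase, had many of their UMIs in subcluster 2 too, at 7 and 57, 11 and 55, and 1 and 19 UMIs. Cilium genes led that subcluster. Folh1, which encodes a peptidase that releases glutamate, had 3 and 51 UMIs (10.6, 3.45 to 53.4), and the activin receptor gene Acvr1c had 2 and 33 (10.3, 2.64 to 88.9). The sulfate transporter gene Slc13a1 had 3 and 30 UMIs, of which 0 and 16 lay in subcluster 7. The others were Tfpi (1 and 23 UMIs), a gene for an inhibitor of coagulation, and Gm12160, Gm43507, Gm45829 and Gm20618, with 1 to 11 UMIs in control and 27 to 69 in the other library.

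Among those lower in the library labelled cKO, several had many of their UMIs in granule lineage-like subcluster 10, with 47 and 21 nuclei. Gm12082 and Col18a1 were among the leading genes of that subcluster, so their place in it is a description only. Fgfr4, a receptor gene for fibroblast growth factors, had 41 and 5 UMIs (ratio 0.0764, 0.0236 to 0.193), with 23 and 0 of them in subcluster 10 and 11 and 0 in astroglia-like subcluster 1. Col18a1, a collagen gene, had 62 and 23 UMIs (0.232, 0.137 to 0.380), with 32 and 2 in subcluster 10. Gm12082 had 49 and 3 UMIs (0.0384, 0.00765 to 0.119), with 35 and 1 in subcluster 10. Ntf3, the gene for neurotrophin-3, had 47 and 12 UMIs (0.160, 0.0772 to 0.306). The histone gene Hist1h2ap had 164 and 80 UMIs (0.306, 0.231 to 0.402) and Mfap4, a microfibril gene, 97 and 44 (0.284, 0.194 to 0.410). Chrnb4, G730003C15Rik, Gm26820, Gm26885 and Gm12027 had 18 to 59 UMIs in control and 2 to 21 in the other library.

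Most of the genes named as lower were lower in all other passed nuclei too, which share the libraries. There the ratios were 0.0757 for Gm12082, 0.0619 for G730003C15Rik, 0.119 for Chrnb4, 0.157 for Mfap4, 0.178 for Ntf3, 0.220 for Fgfr4, 0.231 for Hist1h2ap, 0.279 for Col18a1 and 0.321 for Gm12027. They were not lower there for Gm26820 (0.976), Gm26885 (1.04) and Tafa1 (1.64). Of the genes named as higher, Gm12160 (29.7), Folh1 (2.88), Pifo (2.07) and Chst9 (2.02) were past 2-fold outside the selection, and Gm43507 (1.98) and Enkur (1.59) were above 1.5. The others lay between 0.684 for Slc13a1 and 1.34 there.

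Tafa1, a gene for a small secreted protein, was named as lower with 560 and 231 UMIs (ratio 0.258, 0.221 to 0.302), but 1 control nucleus held 451 of the 560. Without that nucleus Tafa1 had 109 and 231 UMIs, a ratio of 1.32 (1.05 to 1.67), so its direction rested on 1 nucleus. Of the 24 named genes, 22 had fewer than 20 UMIs in the progenitor-like nuclei, so they describe mostly the other nuclei that the rule took in.

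**Figure D3:**
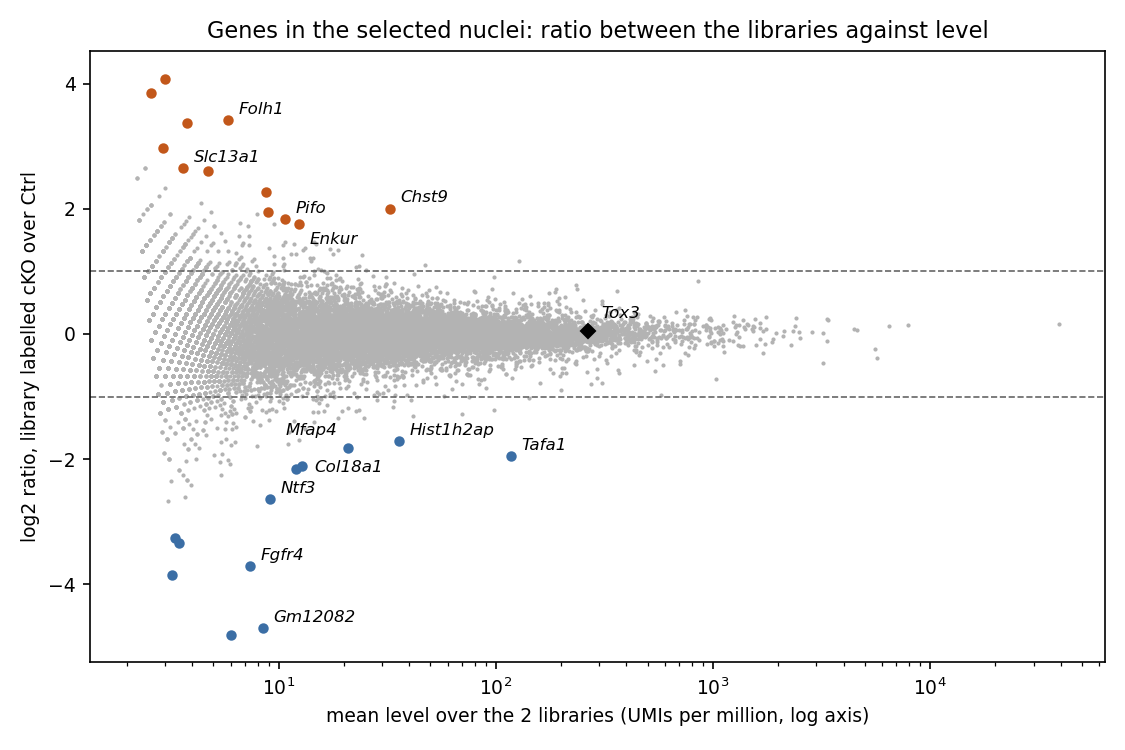
Each grey point is 1 of the genes with 20 or more UMIs in the selected nuclei, with its mean level over both libraries in CPM (log axis) against the log2 ratio of the library labelled cKO over Ctrl, with dashed lines at 2-fold. Orange and blue points are the 12 named genes higher and the 12 lower in the library labelled cKO, and the black diamond is Tox3, which sits near 0.

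Gene lists were then read in the order of their roles, each by its measured members and the median log2 ratio, beside a median of -0.0061 over all 14825 genes, of which 49.1% were higher and 50.9% lower in the library labelled cKO. Of 21 genes for GABAergic fate factors and early lineage genes, 16 were measured in the selected nuclei, 14 higher and 2 lower, with a median of 0.17. This list holds 5 of the 6 genes that chose the nuclei. None was past 2-fold, and the values of single members were small. Pax3 had 758 and 812 CPM and Kirrel2 63.7 and 80.4 CPM, values that the rule itself used. Tfap2b had 267 and 303 CPM (ratio 1.13, 1.04 to 1.24) and Pax2 383 and 396 CPM (1.03, 0.960 to 1.11). On 11 and 19 UMIs, a difference in Ptf1a was not detectable (ratio 1.08, 0.489 to 2.52).

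Stem cell and signalling genes moved little as lists but held some members off 1. Of the 16 radial glia and stem cell genes, 12 were higher and 4 lower (median 0.17). Nes, the intermediate filament gene of neural progenitors, had 75 and 184 UMIs (ratio 1.54, 1.17 to 2.04), and Id4, a gene for an inhibitor of bHLH factors, 29.3 and 44.5 CPM (1.52, 1.18 to 1.97). Of the 23 Notch pathway genes, 8 were higher and 15 lower (median -0.06). The receptor genes Notch1 (107 and 141 CPM; 1.32, 1.15 to 1.51) and Notch3 (87.0 and 121 CPM; 1.40, 1.20 to 1.62) were higher, while Hes6, which promotes neurogenesis, had 44 and 34 UMIs (0.484, 0.300 to 0.775). Of 13 measured Hedgehog pathway genes 8 were higher and 5 lower (median 0.04). Of these 3 lists only Hes6 and Hey2, at 6 and 24 UMIs (2.51, 0.998 to 7.496), were past 2-fold.

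Genes of GABA and glycine transmission were split, with 10 of 18 higher and 8 lower (median 0.03). Gad1 had 269 and 261 CPM in the selected nuclei (ratio 0.968, 0.885 to 1.06). The glycine receptor gene Glra2 had 139 and 195 CPM (1.41, 1.25 to 1.58) and the GABA receptor subunit gene Gabrb1 461 and 565 CPM (1.23, 1.15 to 1.31). Of 6 measured angiopoietin and Frem/Fras genes 5 were higher (median 0.15), but this list holds Frem1, which the rule used. The farthest was the basement membrane gene Frem2, with 46.3 and 73.3 CPM (1.58, 1.30 to 1.94).

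Granule progenitor genes were the list farthest from 0. All 6 measured genes were lower in the library labelled cKO and 4 of them past 2-fold, with a median of -1.17. The study chose these genes on the same samples, so the list is not independent evidence of its direction. The homeobox gene Barhl1 had 59 and 33 UMIs (ratio 0.350), the semaphorin gene Sema7a 106 and 67 (0.396), the netrin gene Ntn1 301 and 240 (0.4996) and Btbd11 783 and 670 (0.536). Taken within subclusters the ratios of these 4 lay between 0.484 and 0.616, and the list median was -0.77. It was -0.45 without nuclei that had 2 or more granule marker UMIs and -0.54 with Pax3 out of the rule. Subcluster 10, with 47 of 538 control nuclei, held 223 of the 783 control UMIs of Btbd11 and 29 of the 59 of Barhl1. Lower values also stood outside the selection. In the microglia class Btbd11 had 236 and 114 CPM and Ntn1 45.5 and 9.62 CPM, and in barcodes with fewer than 1000 genes Barhl1 had 79.0 and 25.5 CPM. The part of free RNA in the difference was not tested. The 54 G2/M and 42 measured S phase genes were also mostly lower, 47 and 34 of them, with medians of -0.33 and -0.17. Within subclusters these medians were -0.13 and -0.08, and the G2/M median was -0.13 at a rule sum of 5 or more.

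The progenitor-like nuclei were read on their own, from 8993 genes with 20 or more UMIs there, of which 288 (3.2%) were 2-fold or more higher in the library labelled cKO and 198 (2.2%) as much lower. In all, 50.1% of these genes were higher and 49.9% lower. Since subcluster 8 made up 29 of 111 and 81 of 248 of these nuclei, each list is also given within the 3 subclusters. Of 13 measured radial glia genes 9 were higher and 4 lower, with a median of 0.39 and of 0.26 within subclusters. Of 15 Notch pathway genes 12 were higher and 3 lower, with medians of 0.28 and 0.20. Of 14 fate factors, a list that holds genes of the rule, 9 were higher and 5 lower, with medians of 0.11 and 0.21. The median over all genes was 0.00027. Markers of other cells moved as well. Of 4 measured astroglia markers 3 were higher, with a median of 0.96 and of 0.82 within subclusters, Aqp4 at 5 and 33 UMIs (ratio 3.65, 1.42 to 12.0) and Gdf10 at 12 and 57 UMIs (2.63, 1.39 to 5.38), and summed they had 270 and 332 CPM (1.23, 1.003 to 1.52). The rule allowed at most 2 UMIs of the Purkinje cell markers, so their values are a description only. Calb1 had 4 and 20 UMIs and Car8 7 and 29, with a median of 1.33 over these 2 genes. The summed ratio of the list was 2.61 (1.35 to 5.55). The part of these markers of other cells in the lists above was not tested.

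Over all genes outside the rule, others lay farther from 1 in the progenitor-like nuclei than those of the lists. The highest lower bounds were those of Gria1 (18 and 106 UMIs; ratio 3.255, 1.963 to 5.703), Adra1a (15 and 89; 3.28, 1.885 to 6.104) and Aldh1l1 (10 and 64; 3.537, 1.804 to 7.728). Lowest was Meis2 (91 and 31 UMIs; 0.188, 0.121 to 0.286), with 50 of the 91 in 1 nucleus. Among measured single genes of the radial glia, Notch pathway and fate factor lists, Notch1 had the interval farthest above 1. It had 37 and 129 UMIs, or 74.4 and 143 CPM (ratio 1.93, 1.33 to 2.86, and 1.62 within subclusters). The Notch co-activator gene Maml2 had 436 and 621 CPM (1.42, 1.21 to 1.67, and 1.28 within subclusters). Slc1a3 had 618 and 897 CPM (1.45, 1.27 to 1.66, and 1.25 within subclusters), the lipid-binding protein gene Fabp7 292 and 385 CPM (1.32, 1.08 to 1.61) and the phosphatase gene Ptprz1 318 and 427 CPM (1.34, 1.11 to 1.63). These are genes that stood higher in subcluster 8 than in subcluster 4. Slc1a3 within subcluster 6 had 396 and 619 CPM (1.56, 1.21 to 2.04) and within subcluster 8 1761 and 1985 CPM (1.13, 0.957 to 1.33).

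Gad1 was lower in the progenitor-like nuclei of the library labelled cKO, with 137 UMIs in each library, or 276 and 152 CPM (ratio 0.553, 0.433 to 0.706). Within subclusters the ratio was 0.623, and without the nucleus that held most of its UMIs it was 0.612 (0.476 to 0.788). In subcluster 4 Gad1 had 513 and 356 CPM (0.694, 0.515 to 0.936) and in subcluster 6 217 and 102 CPM (0.468, 0.295 to 0.740). The intervals of its paralog Gad2, at 60.3 and 90.1 CPM (1.49, 0.971 to 2.35), and of Pax2, at 654 and 699 CPM (1.07, 0.934 to 1.23), held 1. Abat, which encodes the enzyme that breaks down GABA, had 227 and 162 CPM (0.714, 0.555 to 0.921), and Gabrb1 129 and 241 CPM (1.87, 1.41 to 2.52). Of 14 measured GABA and glycine genes 6 were higher and 8 lower, with medians of -0.17 and of -0.09 within subclusters.

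The 6 genes that chose the nuclei are given for the progenitor-like ones as a description only. Pax3 had 1187 and 1350 CPM, Tfap2a 326 and 299 CPM, Frem1 239 and 234 CPM, Kirrel2 165 and 219 CPM, Skor1 159 and 166 CPM and Lhx5 139 and 151 CPM. Angpt1, which was not used, had 2056 and 1954 CPM (ratio 0.951, 0.880 to 1.03). Within subcluster 8 Kirrel2 had 357 and 461 CPM, and its neighbour Nphs1 863 and 591 CPM (ratio 0.685, 0.529 to 0.889). The related LIM homeobox gene Lhx1 had 135 and 182 CPM (1.35, 1.01 to 1.83, and 1.47 within subclusters), and without 1 nucleus its interval held 1 (1.32, 0.988 to 1.79).

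**Figure D4:**
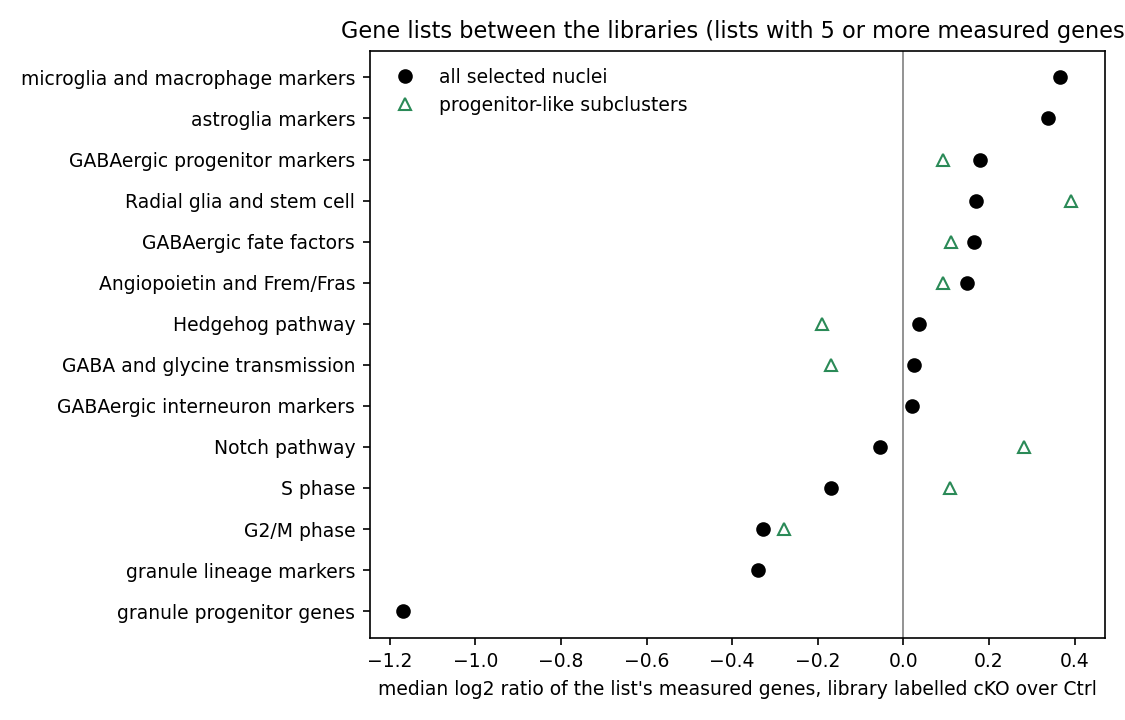
Median log2 ratio of the library labelled cKO over Ctrl for each gene list with 5 or more measured genes, in all selected nuclei (filled circles) and in the progenitor-like subclusters (open triangles). The lists of GABAergic progenitor markers, fate factors and angiopoietin and Frem genes hold genes of the rule. Granule progenitor genes lie farthest from 0, at -1.17 in all selected nuclei, and the S phase list is below 0 in all selected nuclei (-0.17) and above 0 in the progenitor-like ones (0.11).

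The medians of the cell cycle lists had opposite signs in the progenitor-like nuclei, where 50.1% of all measured genes were higher. Of 45 measured G2/M genes 38 were lower and 7 higher, with a median of -0.28 and of -0.24 within subclusters. Of 37 S phase genes 23 were higher and 14 lower, with medians of 0.11 and 0.15. Most dividing nuclei were in subcluster 6, with 37 and 78 nuclei. Genes of these lists thus share nuclei and are not separate observations. Mki67, a gene of dividing cells, had 274 and 218 CPM (ratio 0.797, 0.637 to 0.999), an interval that held 1 without 1 nucleus (0.859, 0.683 to 1.09). Top2a, the topoisomerase gene of late cell cycle phases, had 344 and 300 CPM (0.873, 0.718 to 1.06). The pools differed in sex-linked transcripts as well, with 768 and 1038 CPM of Xist in the selected nuclei (1.35, 1.29 to 1.42) and 759 and 693 CPM of Y-linked genes (0.913, 0.866 to 0.964). The part of sex in any ratio was not tested.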

How the data were processed

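The authors used Cell Ranger 7.0.1 and the mm10 mouse genome, by their methods and processing notes. The deposited values are raw UMI counts for 32285 genes and 11803 barcodes. Whether intronic reads were counted is not given in the sources used here. SoupX was not applied and no doublets were removed. Gene positions are from a GENCODE annotation of the same build (GRCm38) but of another release than the files may use.

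UMIs were summed per library. Shares have Clopper-Pearson, sums Poisson and ratios of CPM conditional binomial 95% intervals, and 3 counts stood in for 0. With 1 library per group no p-value was computed. Selected nuclei were clustered in scanpy 1.11.5 (2000 variable genes, without integration of the libraries, 20 components, resolution 0.6). Named genes were the 12 highest and 12 lowest by the interval bound nearest 1, with at least 20 UMIs and 10 nuclei, leaving out rule, sex-linked and mitochondrial genes. Progenitor-like lists, single-nucleus removals and the choice to leave cilium-led subcluster 2 unnamed were added after the values were seen. The selection, its members and the lists were chosen with earlier results of these data known. Scripts were tested on simulated data. Computations used Python 3.11.15, numpy 2.4.6 and scipy 1.17.1. Some members of the lists are not reported here by name.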

Additional observations from a re-analysis of the deposited data

How the results depend on the processing

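No paired analysis was possible because each group was 1 library. The ratio of the selected share, 1.16, was 1.00 outside the granule class. It was 1.503 when nuclei with 2 or more granule marker UMIs were left out of the selected nuclei only. All passed nuclei, the granule class among them, then stayed in the denominator, so 1.503 is not a share outside granule nuclei. The Tox3 ratio, 1.04, was 0.946 with Pax3 out of the rule, 0.920 with Pax3 and Tfap2a out and 0.868 after thinning, and each of these intervals held 1. The dividing ratio, 0.770, was 0.479 (0.265 to 0.875) without nuclei that had 2 or more granule marker UMIs. It was 0.922 with Pax3 out of the rule, 0.891 at a rule sum of 5 or more and 0.931 with the rule applied to thinned counts. With doublets removed it was 0.791, and each of these 4 intervals held 1. With Frem1 or Tfap2a out it was 0.764 and 0.761, with intervals below 1. With genes of 1 or more UMIs, 925 were past 2-fold higher and 3045 lower (3 counts in place of 0 make a gene of few UMIs differ by construction), and with 50 or more UMIs 67 and 63. Of the 24 named genes, 14 of 15 measured stayed past 2-fold the same way at a rule sum of 5 or more, 11 of 11 without nuclei that had 2 or more granule marker UMIs, 2 of 4 with Pax3 and Tfap2a out, 1 of 2 in progenitor-like nuclei and 1 of 1 after thinning. The named genes were picked as the farthest from 1 in largely the same nuclei, so these counts are not an independent check. Tafa1 turned to a log2 ratio of 0.64 at a rule sum of 5 or more. The radial glia median turned to -0.034 without Pax3 and to -0.016 after thinning. The S phase median turned to 0.11 without Pax3, 0.11 in progenitor-like nuclei and 0.21 without Pax3 and Tfap2a, where the angiopoietin and Frem median was -0.068. Lists with a median below 0 numbered 5 in the selected nuclei and 3 in the progenitor-like ones. Under the alternatives, 88 values of the 7 main results stayed within the counting interval or within 1.5 times the count and 16 moved. For single genes and lists 298 stayed, 40 moved and 7 changed sign where the main interval lay off 0. For a list, that interval was the interquartile range of its genes. Sign changes of values whose main interval held 0 are counted among those that stayed or moved. The cause of these moves was not tested. Over 5 other clusterings of the selected nuclei the Tox3 ratio in progenitor-like nuclei ran from 0.961 to 1.00, and 76.9% to 99.2% of the nuclei named so here were named so again. Scrublet marked 9.85% and 8.44% of the selected nuclei of the libraries for removal, of them 2 and 5 progenitor-like. Intervals cover counting error alone, and neither the spread between animals nor between libraries could be had.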
